A study of Mus musculus with 18 samples.

Results

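The expression of 10 genes of iron uptake, storage and export was followed across liver, epididymal white adipose tissue (eWAT) and muscle of mice on a high-salt diet. They are Tfrc, Tfr2, Trf, Slc11a2, Fth1, Ftl1, Slc40a1, Hamp, Aco1 and Ireb2, and they were taken by name from the 21899 genes with a value, so that 10 of 21899 genes are described in full. The set was chosen by a fall of Tfrc in muscle, and the muscle values of the diets are therefore given as a description with no test.

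All mice were male C57BL/6 wild-type animals of 18 weeks. The HSD group ate a diet with 8% NaCl and drank 0.9% saline for 12 weeks, and the CON group ate chow and drank tap water. Each tissue had 3 CON and 3 HSD libraries of ribosome-depleted total RNA, 18 in all, named by diet, a number and tissue (CON14L or HS2L for liver, W for eWAT, M for muscle). The numbers differ within each group and mostly recur across tissues: CON16, CON72, HS2 and HS5 are found in all 3. The labels do not state that the numbers stand for separate mice. If they do not, p-values measure only a spread between libraries that may be technical. Levels are FPKM, fragments per kilobase of gene, scaled to the depth of the library.

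Depth recovered from the FPKM ranged from 7628071 to 16637489 fragments per library, and mitochondrially encoded genes took 15.4 to 60.8% of the fragments in liver, 3.52 to 5.11% in eWAT and 11.3 to 16.5% in muscle. The markers of each labelled tissue were high in its libraries. The lowest sum of 20 hepatocyte markers in liver was 19982 FPKM in CON14L, and that of 11 adipocyte markers in eWAT was 7693 FPKM in HS3W. CON16L held 5559 FPKM of 15 skeletal muscle markers, against at most 7.57 FPKM in the other liver libraries. HS3W held 26511 FPKM of 17 epididymal epithelium markers, against at most 14.4 FPKM in the other eWAT libraries. Values of the members without these libraries are given where they bear on a result. In bulk tissue, fewer cells of a type and less RNA per cell cannot be told apart.

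Iron travels in blood bound to transferrin (Trf), and cells take it up through the transferrin receptor Tfrc, whose cargo leaves the endosome through the divalent metal transporter Slc11a2. Tfr2, a second receptor, acts in hepatocytes as a sensor of loaded transferrin and feeds into the control of hepcidin (Hamp), the liver hormone that removes the exporter ferroportin (Slc40a1) from the cell surface. Ferritin, built of heavy (Fth1) and light (Ftl1) subunits, stores iron in the cytosol. Aco1 and Ireb2 encode the iron regulatory proteins, which bind a hairpin in messenger RNA, the iron-responsive element: bound in the 5′ UTR it blocks translation, and bound in the 3′ UTR it protects the message from decay.

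The hairpins are shown because these proteins act on iron genes through them, and 4 of the 10 members hold a strict form of the sequence. The transcripts of GENCODE M21 (GRCm38, mm10) were searched on the sense strand for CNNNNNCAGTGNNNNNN, in which the 6 loop bases start with CAGTG, the sixth is not G, and the 5 bases on either side pair with each other, G with T allowed. Each line gives the 17 matched bases with 6 more on each side, 5′ to 3′, with the loop in capitals, and the coordinates are those of the 17 bases.
Fth1, 5′ UTR, chr19:9982738-9982754, plus strand: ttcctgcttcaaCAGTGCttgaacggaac
Ftl1, 5′ UTR, chr7:45459785-45459801, minus strand: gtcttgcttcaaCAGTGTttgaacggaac
Slc40a1, 5′ UTR, chr1:45925471-45925487, minus strand: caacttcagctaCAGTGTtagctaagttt
Tfrc a, 3′ UTR, chr16:32631225-32631241, plus strand: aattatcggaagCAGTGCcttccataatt
Tfrc b, 3′ UTR, chr16:32631604-32631620, plus strand: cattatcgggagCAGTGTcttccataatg
Tfrc c, 3′ UTR, chr16:32631669-32631685, plus strand: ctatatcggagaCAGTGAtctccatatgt
Tfrc d, 3′ UTR, chr16:32631716-32631732, plus strand: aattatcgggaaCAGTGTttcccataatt

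The pattern stood in the 5′ UTR of both ferritin genes and of the exporter, and 4 times in the 3′ UTR of Tfrc. Of 22527 genes with a coding transcript, 23 (0.102%) held it in a 5′ UTR and 110 (0.488%) in a 3′ UTR. It was not found in the UTRs of the other 6 members, which says only that these letters are not there: the message of Slc11a2 is also known as a target of these proteins. Of 83 other iron genes with a coding transcript, 2 held it in a UTR, Alas2 and Bola3. A match is a description of the letters and no measurement of binding.

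In muscle, Tfrc was at 30.4, 28.8 and 29.5 FPKM in CON16M, CON71M and CON72M, and at 15.5, 15.0 and 17.4 FPKM in HS2M, HS3M and HS5M. Every HSD library stood below every CON library. The HSD mean of 15.9 ± 1.25 FPKM (SD, n = 3) was 54.0% of the CON mean of 29.6 ± 0.79 FPKM (SD, n = 3). The difference was -0.87 on the log2(FPKM + 0.5) scale with a limma SE of 0.11, and it lay between -0.93 and -0.79 under the 17 alternative settings. This is the value that chose the set, and no test is attached to it. Between 1204 and 2488 fragments stood behind each muscle value of Tfrc.

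The exporter and the ferritin subunits had higher means in the HSD muscle libraries. Slc40a1 was at 4.39, 4.93 and 4.26 FPKM in the CON libraries and at 8.13, 6.39 and 4.85 FPKM in HS2M, HS3M and HS5M. The groups overlapped, since HS5M lay below CON71M, and the log2 difference was 0.45 with an SE of 0.17. Fth1 was at 360.9, 318.8 and 389.3 FPKM in CON and at 401.2, 430.3 and 513.4 FPKM in HSD, a log2 difference of 0.33 with an SE of 0.14. The 3 HSD values of the heavy subunit lay above the 3 CON values. Ftl1, the light subunit, was at 38.9, 38.9 and 47.7 FPKM in CON and at 41.0, 60.5 and 54.3 FPKM in HSD, with overlapping groups and a log2 difference of 0.30 with an SE of 0.16.

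**Figure D1:**
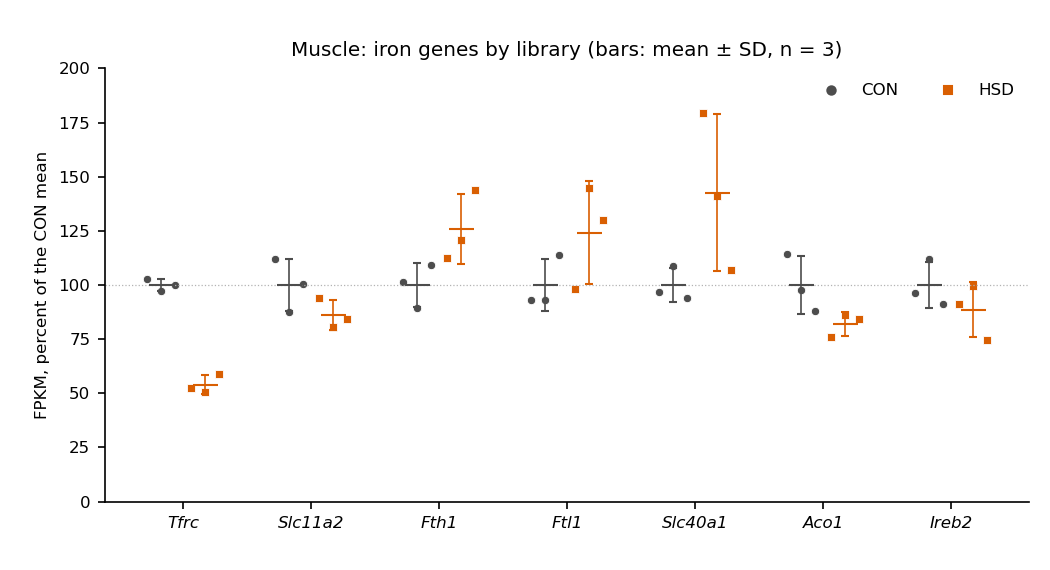
FPKM of 7 iron genes in the muscle libraries as a percent of the CON mean of each gene, with 1 point per library and bars for the mean ± SD (n = 3). The HSD points of Tfrc lie near 54.0% of the CON mean, those of Fth1 lie above the CON points, and those of Slc40a1 are spread.

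The remaining members had lower means in the HSD muscle libraries, or were near the limit of detection. The log2 difference was -0.25 for Aco1, with the HSD libraries below the CON libraries, -0.16 for Ireb2, -0.19 for Slc11a2 and -0.33 for Trf, the last 3 with overlapping groups. Hamp was at 0.184, 2.27 and 0.872 FPKM in CON and at 0, 0.563 and 0.59 FPKM in HSD, from 0 to 11 fragments per library. Tfr2 had no more than 5 fragments in any muscle library and was left out of the fit. In all, 9 members were fitted in muscle, of which 3 had all HSD libraries on one side of all CON libraries, beside 22.3% of all 10834 genes, and 0 were called, beside 0.323% of all genes. With the replicate number as a block, 0 members were called too, but 54 genes in place of 35 (0.498% of those tested). These contrasts chose the set, and nothing is read from the counts.

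Marker sums of macrophages and red blood cells were set side by side in the muscle libraries, and only those of macrophages lay apart between the diets. The summed FPKM of 13 macrophage markers was 57.5 to 91.1 in CON and 40.9 to 44.1 in HSD, with Clec4f and Marco at 0 in both. The sum of 8 red blood cell markers was 123.8 to 965.6 FPKM in CON and 126.6 to 174.4 FPKM in HSD, the highest in CON16M. Their part in the muscle values was not tested. Without CON16M the log2 difference of Tfrc stayed within the range given above.

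The levels of the members in the tissues were compared in CON mice. Tested over the 9 CON libraries in a single limma fit, 7 members were called between liver and eWAT, 7 between liver and muscle and 7 between eWAT and muscle, beside 69.4%, 50.1% and 54.9% of all 12637 genes, where called means a Benjamini-Hochberg adjusted p under 0.05 and a log2 difference of at least 1 in size. The 3 comparisons share CON libraries, and CON16 and CON72 occur in all 3 tissues. Libraries with the same number may come from the same mouse, while the fit treats them as independent. With the number as a random block, 69.3%, 50% and 55% of all genes were called. The median difference of all genes was not 0: it was -1.36 for liver minus eWAT, -0.52 for liver minus muscle and 0.93 for eWAT minus muscle, and it went to 0.03, -0.08 and 0.07 when libraries were scaled to the median ratio. Member differences are to be read against these shifts. Between liver and eWAT the share of members called was close to that of all genes, and without the mitochondrially encoded genes 4 members were called there.

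**Figure D2:**
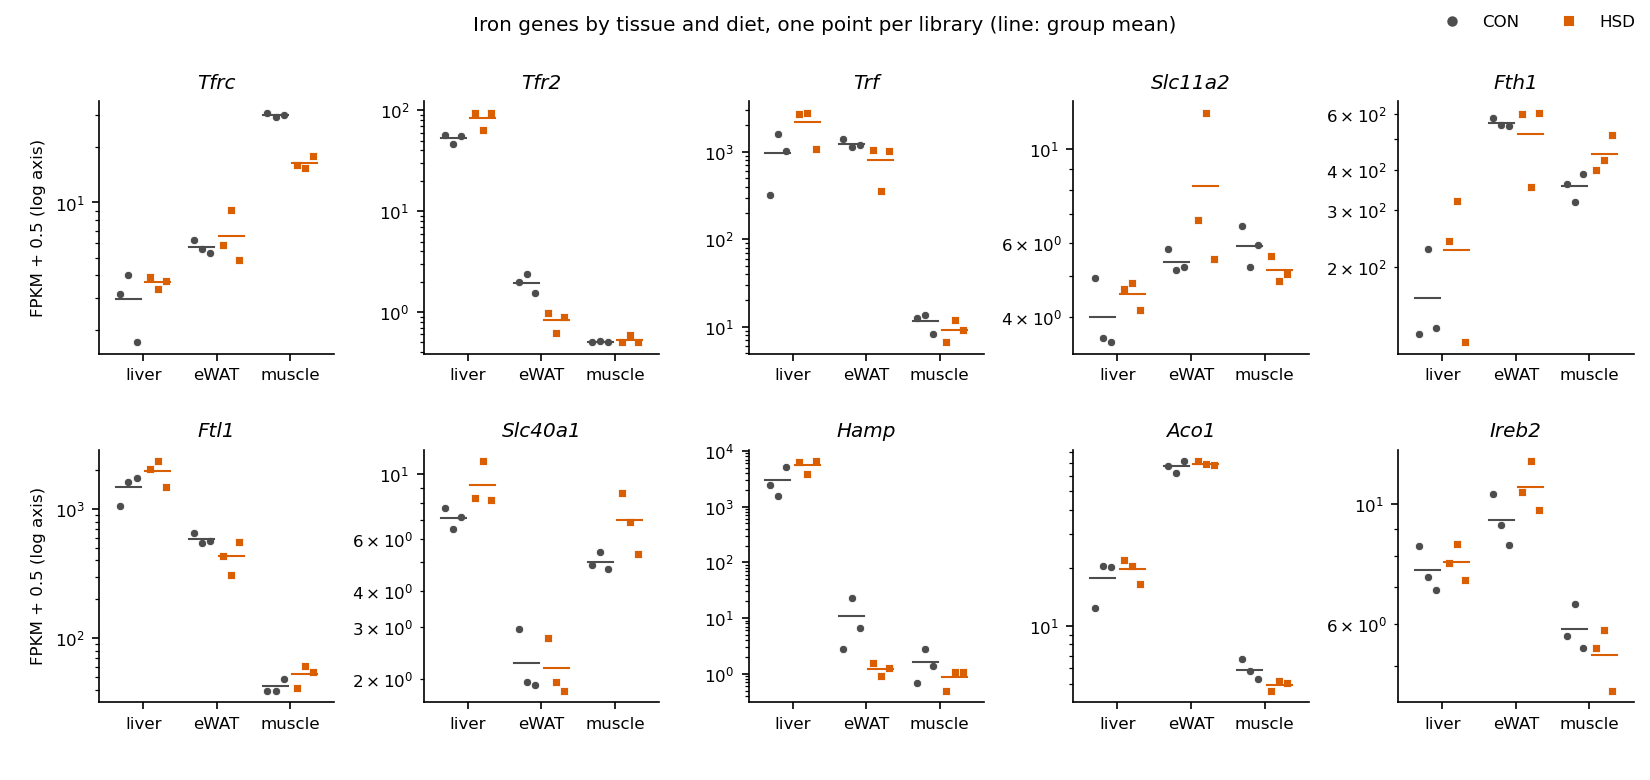
FPKM + 0.5 on a log axis for the 10 iron genes in liver, eWAT and muscle, with 1 point per library (circles CON, squares HSD, in the order of the replicate numbers) and a line at the group mean. Tfrc is highest in muscle, Tfr2 and Hamp in liver, and Aco1 in eWAT. Trf overlaps between liver and eWAT in CON mice and is higher in liver in HSD mice.

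Among the genes of uptake, the receptors had opposite orders. Tfrc was highest in muscle (29.6 ± 0.79 FPKM), followed by eWAT (5.19 ± 0.491 FPKM) and liver (2.47 ± 1.17 FPKM; SD, n = 3 each). Liver stood 3.43 log2 units below muscle (difference -3.43, SE 0.27, limma adjusted p = 5.75e-06), and eWAT stood below muscle as well (-2.41, SE 0.27, limma adjusted p = 4.4e-05). The muscle level of Tfrc in HSD mice, at 15.9 FPKM, was still the highest of the 3 tissues. The difference of Tfrc between liver and eWAT was called as deposited (-1.02, SE 0.27, limma adjusted p = 0.00642) but was 0.41 with median-ratio scaling, so that its direction depends on the scaling. It also missed the threshold without CON72L (-0.67) or CON16W (-0.95). Without CON16L, which held skeletal muscle markers and the highest CON liver value of Tfrc, it was -1.29.

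Tfr2 was at 56.7, 45.5 and 55.7 FPKM in the CON liver libraries CON14L, CON16L and CON72L, at 1.48, 1.86 and 1.03 FPKM in eWAT, and at 0, 0.0195 and 0 FPKM in muscle. The muscle libraries held at most 1 fragment of it in CON mice. Liver exceeded eWAT by 4.78 log2 units (SE 0.17, limma adjusted p = 5.05e-08). Because the muscle libraries lay at or near 0, the fitted difference from muscle depends on the pseudocount, and it ran from 5.73 to 11.85 over the alternatives.

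Trf was not a liver transcript alone. CON14L, CON16L and CON72L held 318.3, 1584 and 1020 FPKM, and CON16W, CON71W and CON72W held 1399, 1133 and 1181 FPKM. The groups overlapped, with CON14L the lowest of the 6. The difference of liver minus eWAT was -0.62 (SE 0.54, limma adjusted p = 0.307), was 1.04 with median-ratio scaling, was 0.04 without CON14L, was 1.48 in HSD mice, and was called without CON16L (-1.11, limma adjusted p = 0.0451). Muscle held 7.84 to 13.1 FPKM, and eWAT exceeded it by 6.78 log2 units (SE 0.54, limma adjusted p = 5.5e-06). Exons of Trf overlap those of Gm20425 on the same strand, so that fragments there may be shared.

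Slc11a2 had nearly level values, from 2.98 to 4.44 FPKM in liver, 4.67 to 5.29 FPKM in eWAT and 4.74 to 6.06 FPKM in muscle of CON mice. eWAT and muscle overlapped, and no tissue pair was called as deposited, while eWAT minus muscle (-1.03) and liver minus eWAT (1.02) were called with median-ratio scaling. Its exons overlap Gm5475 on the opposite strand.

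The messenger RNAs of the ferritin subunits differed in proportion between the tissues, and the protein was not measured. Ftl1 was at 1471 ± 360.0 FPKM in liver, 587.4 ± 60.5 FPKM in eWAT and 41.8 ± 5.09 FPKM in muscle (SD, n = 3 each), and all 3 tissue pairs were called, with liver above muscle by 5.09 log2 units (SE 0.32, limma adjusted p = 1.32e-06). Fth1 was highest in eWAT at 562.0 ± 17.8 FPKM, then at 356.3 ± 35.5 FPKM in muscle and 159.6 ± 58.1 FPKM in liver (SD, n = 3 each). Its differences of liver minus eWAT (-1.87) and liver minus muscle (-1.21) were called as deposited but were -0.21 and -0.57, and not called, with median-ratio scaling. The ratio of Fth1 to Ftl1 within a library, which no scaling of the library changes, was 0.0742 to 0.14 in CON liver, 0.888 to 1.02 in CON eWAT and 8.16 to 9.27 in CON muscle. The 3 ranges did not overlap. FPKM here divide by the union of all annotated exons, 3469 bases for Fth1 against 929 bases for a spliced messenger RNA of the gene, and 1340 against 968 bases for Ftl1, so that the size of the ratio depends on these lengths, which are the same for every library. Exons of Ftl1 overlap Gm22133 on the same strand and Gm10252 on the other.

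Slc40a1 was highest in liver at 6.60 ± 0.571 FPKM, then muscle at 4.52 ± 0.353 FPKM and eWAT at 1.77 ± 0.601 FPKM (SD, n = 3 each), with no overlap between neighbours. Liver exceeded eWAT by 1.68 log2 units (SE 0.18, limma adjusted p = 2.13e-05) and eWAT stood below muscle (-1.18, SE 0.18, limma adjusted p = 0.000319). Liver minus muscle was 0.50, and 1.11 and called with median-ratio scaling. Its hormone Hamp was at 2435, 1551 and 5154 FPKM in CON14L, CON16L and CON72L. In eWAT it was at 2.28, 22.5 and 6.16 FPKM, and liver exceeded eWAT by 8.48 log2 units (SE 0.8, limma adjusted p = 7.81e-06). The call between eWAT and muscle (2.45, SE 0.8, limma adjusted p = 0.0194), from 1 to 11 fragments in muscle, was lost without CON71W (1.65), CON16M (1.95) or CON72M (2.45), and with median-ratio scaling (1.6). The copy Hamp2 had at most 0.375 FPKM in CON liver and 1.81 FPKM in HSD liver, so that these fragments were assigned to Hamp.

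Of the RNA-binding sensors, Aco1 was at 66.7 ± 4.67 FPKM in eWAT, 17.2 ± 4.56 FPKM in liver and 5.42 ± 0.719 FPKM in muscle (SD, n = 3 each), and eWAT exceeded muscle by 3.51 log2 units (SE 0.22, limma adjusted p = 1.51e-06). Its difference of liver minus eWAT was called as deposited (-1.96, SE 0.22, limma adjusted p = 2.61e-05) and was -0.33 with median-ratio scaling, below the threshold. Ireb2 lay between 4.91 and 9.94 FPKM in all CON libraries and no pair was called as deposited. For Ireb2, liver minus eWAT was called with median-ratio scaling (1.25), and liver minus muscle without the mitochondrially encoded genes (1.1). The ratio of Aco1 to Ireb2 within a library was 6.75 to 9.02 in CON eWAT, 1.51 to 3.05 in CON liver and 0.88 to 1.2 in CON muscle, again without overlap.

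**Figure D3:**
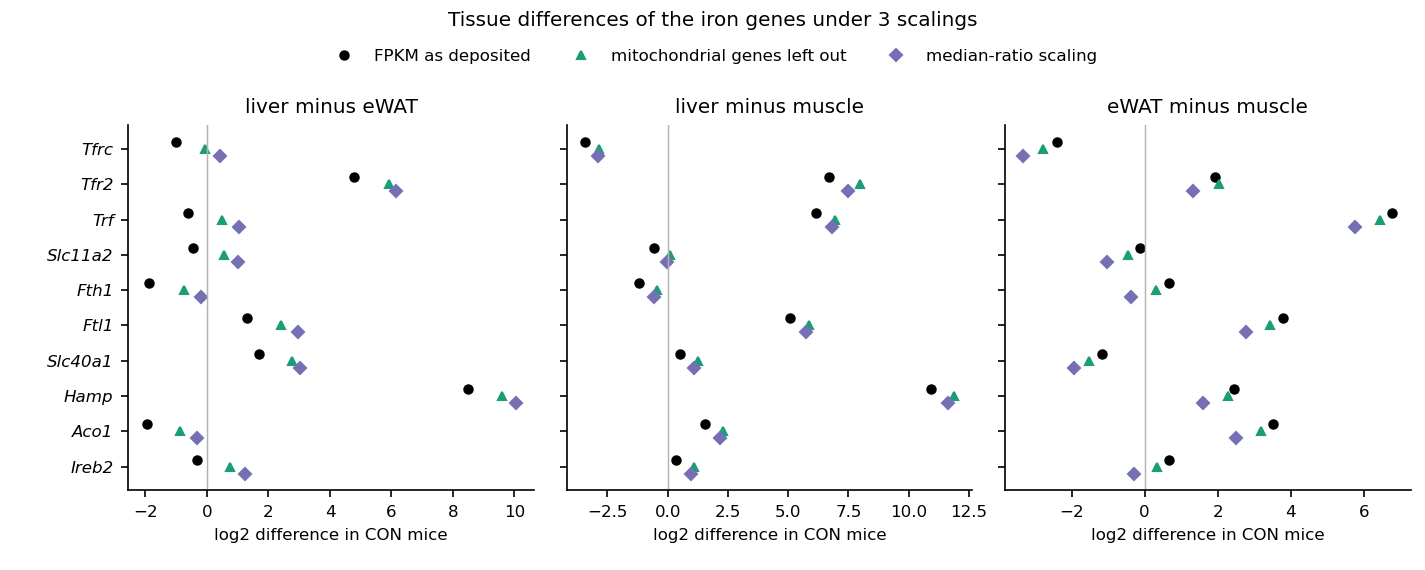
Log2 differences between tissues in CON mice for the 10 iron genes, with the FPKM as deposited (circles), with mitochondrially encoded genes left out (triangles) and with median-ratio scaling (diamonds). The differences of Hamp, Tfr2, Ftl1 and Slc40a1 keep their sign in all 3 panels, while those of Tfrc, Trf, Slc11a2 and Ireb2 between liver and eWAT cross 0.

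In liver, the question was whether the diet moved these genes in their main organ of storage and hormone production. Hamp was at 6425, 3880 and 6564 FPKM in HS2L, HS4L and HS5L, and the HSD mean was 184.6% of the CON mean (log2 difference 1.02, SE 0.58, limma adjusted p = 0.764). The groups overlapped, since CON72L at 5154 FPKM exceeded HS4L. Trf was at 2699, 2783 and 1076 FPKM in HSD (1.32, SE 0.72, limma adjusted p = 0.764), and HS5L fell within the CON range. Tfr2 was at 93.6, 63.7 and 94.0 FPKM in HSD, above the CON libraries throughout, with a log2 difference of 0.65 (SE 0.35, limma adjusted p = 0.764).

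Slc40a1 was at 7.80, 10.6 and 7.70 FPKM in HSD liver, above the CON range of 6.01 to 7.15 FPKM (0.36, SE 0.25, limma adjusted p = 0.764). Ftl1 reached 2043, 2348 and 1487 FPKM and Fth1 239.6, 320.9 and 116.0 FPKM, and both overlapped the CON values. So 2 of 10 members lay apart between the diets, Tfr2 and Slc40a1, beside 12.1% of all 10317 genes. With limma, 0 of 10 members were called, beside 0.0% of all genes, and 0 members had an unadjusted p under 0.05, against 592 of all genes. limma with voom weights on the recovered fragments called 0 members as well.

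All 10 liver differences were positive as deposited, with a median of 0.41 beside 0.13 for all genes, but 7 of 10 were negative once the mitochondrially encoded genes were left out, with a median of -0.12 beside -0.37 for all genes. The mitochondrial share was 60.8, 25.7 and 37.8% of the fragments in CON14L, CON16L and CON72L and 16.3, 15.4 and 44.4% in HS2L, HS4L and HS5L. Tfr2, Trf and Hamp stayed positive under both other scalings. Without the mitochondrially encoded genes they were 0.10, 0.77 and 0.47, against 0.65, 1.32 and 1.02 as deposited, so that little of the Tfr2 difference remained. The macrophage marker sum was 71.6 to 80.9 FPKM in CON liver and 30.4 to 50.5 FPKM in HSD liver, with no marker at 0 throughout, and its part in these values was not tested. Without CON14L the difference of Trf was 0.66, and without CON16L and HS5L, which the study's table of library quality does not list, it was 2.26 (limma adjusted p = 0.115), while Hamp differed by 0.50 and Tfr2 by 0.46. In that smaller fit 35 of 9970 genes were called and 0 members. Without CON16L alone, the difference of Hamp was 0.63, and that of Tfrc was 0.65 against 0.39 with all libraries.

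**Figure D4:**
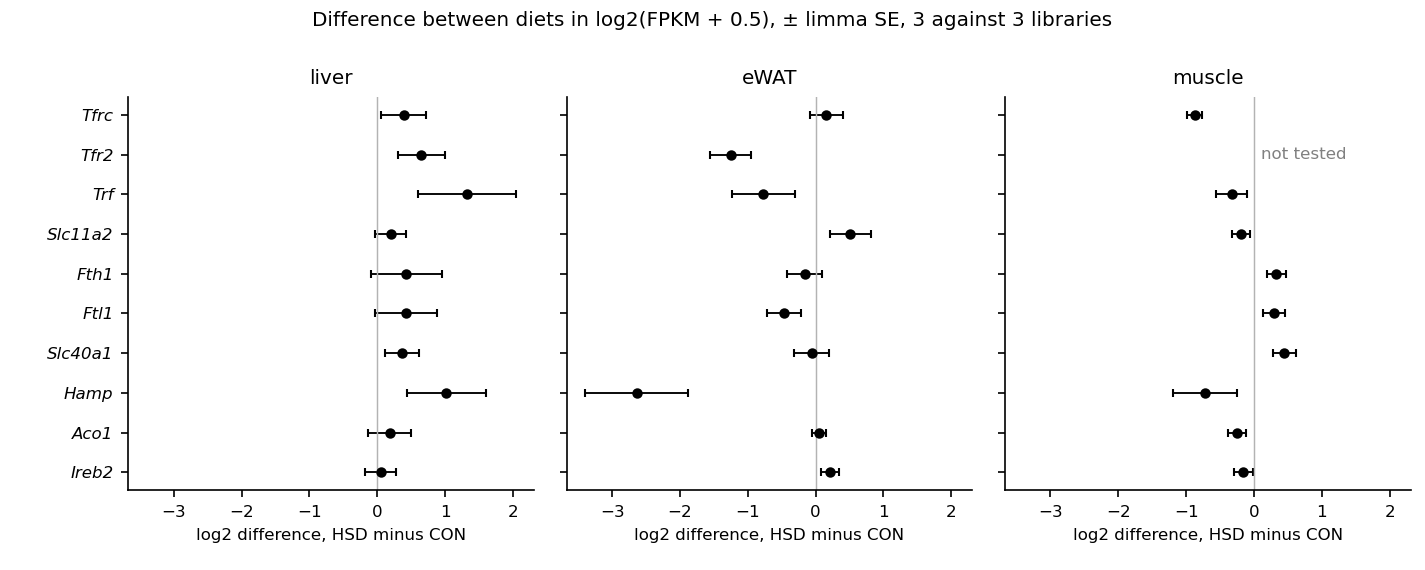
Differences between HSD and CON in log2(FPKM + 0.5) for the 10 iron genes in liver, eWAT and muscle, with bars for the limma SE (3 against 3 libraries). Hamp and Tfr2 lie right of 0 in liver and left of 0 in eWAT, and Tfrc in muscle, the value that chose the set, lies left of 0.

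In eWAT, the largest differences were those of Hamp and Tfr2, both at low levels there, followed by the abundant Trf. Hamp was at 1.07, 0.397 and 0.746 FPKM in HS2W, HS3W and HS5W, against 2.28 to 22.5 FPKM in CON, from 2 to 6 fragments against 15 to 140. The HSD mean was 7.15% of the CON mean, and the difference was -2.64 (SE 0.76, limma adjusted p = 0.204). CON71W held the highest CON value, and without it the difference was -1.83. Tfr2 was at 0.473, 0.113 and 0.388 FPKM, against 1.03 to 1.86 FPKM in CON (-1.25, SE 0.3, limma adjusted p = 0.16). Trf was at 1039, 356.7 and 1010 FPKM, against 1133 to 1399 FPKM (-0.77, SE 0.46, limma adjusted p = 0.426). For these genes every HSD library lay below every CON library, and limma did not call them.

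Markers of hepatocytes moved along with them. The summed FPKM of 20 hepatocyte markers was 528.1 to 820.7 in the CON eWAT libraries and 114.1 to 334.8 in the HSD eWAT libraries, with no marker at 0 throughout. Taken as a percent of the CON liver mean, the median marker stood at 0.733, 1.15 and 0.411% in CON16W, CON71W and CON72W and at 0.0806, 0.0303 and 0.0304% in HS2W, HS3W and HS5W. Not all markers were low: the highest stood at 40.7, 50.7 and 47.6% in these CON libraries and at 35.2, 12.7 and 39.8% in the HSD libraries. The sum can thus rest on few markers, and the median depends less on them. Hamp stood at 0.0749, 0.74 and 0.202% in CON and at 0.0352, 0.013 and 0.0245% in HSD. Thus Hamp lay below the median hepatocyte marker in each eWAT library. Tfr2 stood higher, at 2.82, 3.53 and 1.95% in CON and 0.899, 0.214 and 0.737% in HSD, and Trf stood at 116.3 to 143.6% in CON and 36.6 to 106.6% in HSD. The part of the hepatocyte markers in the differences of Hamp and Tfr2 was not tested.

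**Figure D5:**
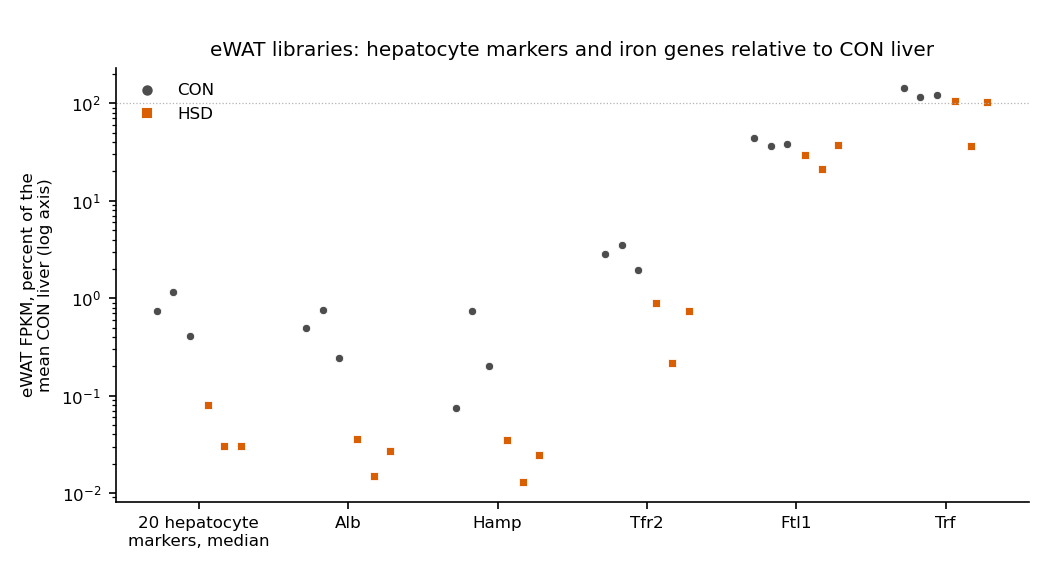
FPKM in the eWAT libraries as a percent of the mean CON liver, on a log axis, for the median of 20 hepatocyte markers, Alb and 4 iron genes, with 1 point per library (circles CON, squares HSD). Hamp lies under the median marker in every library, at or below 0.74%, while Trf and Ftl1 in eWAT are of the same order as in liver.

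The differences of the other members in eWAT were smaller than that of Trf, and some depended on HS3W. Ftl1 was at 434.3, 310.7 and 553.6 FPKM in HSD, overlapping the CON range of 541.1 to 655.8 FPKM. Its difference of -0.47 (SE 0.25, limma adjusted p = 0.387) was -0.26 without HS3W. Slc11a2 was at 6.31, 11.7 and 4.98 FPKM in HSD, and its difference of 0.51 (SE 0.3) was 0.18 without HS3W. Tfrc was at 5.32, 8.56 and 4.37 FPKM, and its difference of 0.16 turned to -0.09 without HS3W, and that of Fth1 from -0.16 to 0.10. Trf differed by -0.27 without that library, while Hamp (-2.43) and Tfr2 (-1.05) were close to their full values. Aco1, at 67.6 to 71.0 FPKM in HSD, had a difference of 0.05 with an SE of 0.1. The ratio of Fth1 to Ftl1 was 1.38, 1.14 and 1.09 in HS2W, HS3W and HS5W, above the CON range of 0.888 to 1.02.

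In eWAT 3 of 10 members lay apart between the diets, beside 28.6% of all 13740 genes. With limma 0 of 10 members were called, beside 0.0% of all genes, and 2 members, Hamp and Tfr2, had an unadjusted p under 0.05, as did 2298 of all genes. limma with voom weights called 0 members. Without HS3W 160 of 13245 genes were called, and 0 members. Other eWAT marker sums were 596.1 to 884.9 FPKM for macrophages in CON against 263.1 to 570.1 FPKM in HSD, and 243.3 to 5672 FPKM for red blood cells in CON against 318.1 to 548.2 FPKM in HSD. Their part in the values was not tested.

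The difference between the tissues was tested as an interaction in a single limma fit of the 12 liver and eWAT libraries. Tfr2 gave 1.9 log2 units (SE 0.35, limma adjusted p = 0.0903), Hamp 3.67 (SE 0.96, limma adjusted p = 0.274) and Trf 2.10 (SE 0.92, limma adjusted p = 0.55), each higher with HSD in liver and lower with HSD in eWAT. None of the 10 members passed, beside 0.0% of all 13252 genes, and 3 had an unadjusted p under 0.05, as did 1154 of all genes. limma with voom weights called 0 members and 3 genes in all. Library numbers recur in the 12 libraries, and with the number as a random block 1 of 13252 genes was called. So the opposite directions were larger than the limma SE of the difference, and did not pass the correction over all genes.

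Beyond the members, 86 further iron genes were listed by role, of which 83 had a value. In liver 73 of them were tested, 0 were called in either direction, 5 lay completely above and 2 completely below the CON libraries, beside 8.62% and 3.47% of all genes, and the median difference was 0.30 beside 0.13 for all genes. In eWAT the numbers were 76 tested, 0 called, 13 above and 16 below, beside 16.2% and 12.4% of all genes, with a median of -0.03 beside 0.08. In muscle they were 71 tested, 0 called, 5 above and 10 below, beside 6.72% and 15.6% of all genes, with a median of -0.04 beside -0.06. No list of a role held a called gene in any tissue.

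In liver, haem synthesis had 11 tested genes, of which 1 lay above and 1 below, with a median of -0.09. Alas1, which makes the first committed step, was at 34.7 ± 9.92 FPKM in CON and 14.5 ± 4.97 FPKM in HSD (SD, n = 3 each; log2 difference -1.25, SE 0.37, limma adjusted p = 0.764). Fech, which inserts iron into the ring, was at 6.65 ± 1.51 and 10.8 ± 1.63 FPKM (0.68, SE 0.27). Id1, a target of the signalling that also drives hepcidin, was at 8.91 ± 3.01 FPKM in CON and 23.6 ± 8.0 FPKM in HSD (1.34, SE 0.38, limma adjusted p = 0.764). The groups of each of these genes lay apart as deposited, as did those of Steap2, a metalloreductase (0.79), and Slc25a37, the mitochondrial iron importer mitoferrin 1 (-0.72). None passed the correction, and no value under another scaling is given for them. The sum of 8 red blood cell markers in liver was 471.6 to 5636 FPKM in CON and 236.9 to 664.4 FPKM in HSD, with Epb42 at 0 in HSD. Its part in these differences was not tested.

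In eWAT, haem uptake, export and breakdown was the list with the lowest median, -0.53. Of its 11 genes, 6 lay completely below and 0 above, beside 12.4% and 16.2% of all genes in eWAT. In either direction 54.5% of its genes lay apart, against 25.0 to 50.0% in the other lists. The list is named for its median in these same values, so that nothing is read from its counts. The genes named next have the largest differences over all lists, not in this list alone. No value without HS3W is given for them or for the list. Hpx, the plasma scavenger of haem, was at 7.62 ± 3.93 FPKM in CON and 0.607 ± 0.253 FPKM in HSD (-2.80, SE 0.36, limma adjusted p = 0.0905). Hp, the haptoglobin that binds free haemoglobin, was at 1831 ± 38.1 FPKM in CON and 750.5 ± 370.8 FPKM in HSD (-1.43, SE 0.43, limma adjusted p = 0.216). Hfe, a partner of the transferrin receptors, was at 34.0 ± 4.27 FPKM in CON and 12.8 ± 5.71 FPKM in HSD (-1.48, SE 0.36, limma adjusted p = 0.162; SD, n = 3 each). The upper end was held by Slc39a8, a metal importer (1.44), whose highest value of 24.8 FPKM stood far above its lowest HSD value of 1.9 FPKM, and by Steap1 (0.78) and Cpox (0.53). Beside Hpx, Hp and Hfe, the median hepatocyte marker was lower, at 0.411 to 1.15% of the CON liver mean in CON and 0.0303 to 0.0806% in HSD. The macrophage marker sum was lower too (596.1 to 884.9 FPKM in CON and 263.1 to 570.1 FPKM in HSD). The part of both in these differences was not tested.

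In muscle the contrast is the one that chose the set, and values are a description. Steap3, the ferrireductase of the transferrin endosome, was at 6.98 ± 0.473 FPKM in CON and 4.51 ± 0.799 FPKM in HSD (-0.59, SE 0.14), on the same side as Tfrc. Alas2, the erythroid enzyme, was at 1.41 to 10.8 FPKM in CON and 0.50 to 1.24 FPKM in HSD (-1.38, SE 0.57), and is itself one of the 8 red blood cell markers. Hp differed by -1.12, and Smad7 (0.51), Bmpr1a (0.29) and Pcbp2 (0.24), the last an iron chaperone, lay above.

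Over the 18 libraries, the genes whose log2(FPKM + 0.5) ran most like that of a member differed between members, by Pearson's r among 11730 genes and as a description. For Tfrc they were Ppp2r3a (0.966), Stradb (0.965) and Ankrd28 (0.965), for Tfr2 Hpd (0.998) and F7 (0.996), and for Hamp Tat, Apoc3 and Mug1 (0.993 each). For Trf they were Galm (0.995), Hp (0.994) and Slc16a12 (0.993), and for Slc40a1 0610040J01Rik (0.939), Slc38a4 (0.931) and Slc7a2 (0.923). The libraries of a tissue share their tissue, so that these values rest mostly on the contrast between 3 tissues, and Tat and Apoc3 are also among the 20 hepatocyte markers.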

How the data were processed

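Ribosome-depleted, stranded, paired-end RNA-seq was made from liver, eWAT and muscle. Per the paper's methods, the authors used cutadapt for trimming, hisat2 for alignment to the mouse genome mm10, and cuffdiff with Ensembl gene models for the gene-level FPKM that they deposited. The submitters' processing notes also name HTSeq 0.9.1 and mm9 without a role. No per-gene counts were used. Multiplying the FPKM by the exon union of GENCODE M21 and a fitted library total recovered whole fragments (tolerance 0.1) for 18373 of 18822 genes above 0 (97.6%), the 10 members among them, and gave the depth of each library (7628071 to 16637489).

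Diets were compared per tissue on log2(FPKM + 0.5) by limma 3.58.1 in R 4.3.3, with a filter at a mean FPKM of 0.5 or more, an eBayes trend, and Benjamini-Hochberg adjustment over all genes. Fold changes on this scale understate those of low genes. Tissues were compared over the 9 CON libraries, and the diets of liver and eWAT by an interaction. The fit was run on simulated data with large planted changes and a capped spread, which does not measure its power in these libraries. Groups came from the labels. Deviations from the group mean of samples with the same replicate number had positive correlations in muscle (r = 0.383, 0.177 and 0.184). Signs were mixed in liver (-0.473, 0.395 and -0.213) and eWAT (-0.197, 0.061 and 0.414), whose highest values exceeded those of muscle. Other pairings were not compared, and no pairing is read from these values.

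Alternatives were other pseudocounts, filters and scalings, no trend, array weights, adjusted p alone, each library left out, the study's own libraries, a replicate block, the number in the library name as a random block, the HSD libraries for tissue contrasts and, added after seeing the data, voom (limma) on the recovered fragments. Python 3.11.15 with numpy 2.4.6, pandas 2.3.3 and matplotlib 3.10.9 made the tables and figures. The 10 members and the lists of other iron genes and markers were chosen with earlier results of these data known. Named other iron genes are, per tissue, up to 3 with the largest rise and 3 with the largest fall among those whose groups lay apart, and Hamp2. Genes most like a member are the 3 with the highest r, for Tfrc, Tfr2, Hamp, Trf and Slc40a1, where the mean FPKM was 1 or more. One of these genes is not reported here. Coordinates are from GENCODE M21 on GRCm38.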

Additional observations from a re-analysis of the deposited data

Results flagged for a closer look

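As deposited, Tfr2 was higher in all 3 HSD than in all 3 CON liver libraries, and lower in all 3 HSD than in all 3 CON eWAT libraries. The liver part depends on the scaling: its difference of 0.65 was 0.10 without the mitochondrially encoded genes, while that in eWAT was -1.31. The difference between the diet effects, liver minus eWAT, was 1.9 log2 units (SE 0.35, limma adjusted p = 0.0903 in the interaction over 12 libraries), and over the 25 alternatives it ran from 1.41 to 2.93, with adjusted p from 9.87e-05, under array weights that did not converge, to 0.734. In eWAT Tfr2 stood on 74 to 122 fragments per library in CON and 6 to 28 in HSD. The median hepatocyte marker, as a percent of the CON liver mean, differed there in the same direction, and its part was not tested.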

How the results depend on the processing

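Over the 7 comparisons, 136 of 141 recounts of called members stayed within 1.5 times the reported count. Array weights called 2 members in liver between diets (Tfrc and Trf), 1 in eWAT (Tfr2) and 4 in the interaction (Hamp, Tfr2, Tfrc and Trf), against 0 each, and adjusted p alone gave a count of 1 in place of 0 in muscle, from which nothing is read, since that contrast chose the set. The array weights did not converge for liver, the interaction and the tissues: in liver HS2L and CON72L had weights of 35.4 and 8.19 and the other libraries at most 0.428, so that the liver calls rest on 1 library of each diet. In eWAT HS3W had a weight of 0.0915. Between liver and eWAT of CON mice 4 members in place of 7 were called without the mitochondrially encoded genes. The replicate block called 0 members in liver, eWAT, muscle and the interaction, and changed no call of a member.

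Of the log2 differences of single members, 40 of 1390 recomputed values changed sign. Without the mitochondrially encoded genes, HSD minus CON in liver was -0.08 for Tfrc, -0.31 for Slc11a2, -0.12 for Fth1, -0.13 for Ftl1, -0.17 for Slc40a1, -0.36 for Aco1 and -0.48 for Ireb2. With it left out, liver minus eWAT was 0.49 for Trf, 0.57 for Slc11a2 and 0.76 for Ireb2, liver minus muscle 0.11 for Slc11a2, and the interaction -0.23 for Tfrc, -0.10 for Slc40a1 and -0.40 for Aco1. With median-ratio scaling, HSD minus CON was -0.05 for Ireb2 in liver and -0.01 for Aco1 in eWAT, liver minus eWAT 0.41 for Tfrc, 1.04 for Trf, 1.02 for Slc11a2 and 1.25 for Ireb2, and eWAT minus muscle -0.36 for Fth1 and -0.28 for Ireb2. With array weights, HSD minus CON in eWAT was -0.01 for Tfrc, 0.08 for Fth1 and 0.17 for Slc40a1, and the interaction 0.15 for Slc11a2. In the study's own libraries Slc40a1 in eWAT was 0.06. In HSD mice, liver minus eWAT was 1.48 for Trf and eWAT minus muscle 0.57 for Slc11a2. The causes were not tested.

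Leaving out each library in turn gave, for HSD minus CON, -0.06 to 0.30 for Aco1 and -0.01 to 0.13 for Ireb2 in liver, and -0.09 to 0.36 for Tfrc, -0.29 to 0.10 for Fth1 and -0.24 to 0.15 for Slc40a1 in eWAT. It gave -1.11 to 0.04 for Trf in liver minus eWAT, and in the interaction -0.13 to 0.49 for Tfrc, -0.55 to 0.02 for Slc11a2 and -0.11 to 0.25 for Aco1. With 0 to 11 fragments in muscle, levels of Hamp and Tfr2 there could not be compared between diets at this depth.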
